A study of Mus musculus with 10 samples.

Results

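The 9 genes described here are listed as muscle ubiquitin ligases and adaptors: Fbxo32, Trim63, Trim55, Trim54, Fbxo40, Asb2, Cbfb, Mul1 and Stub1. Cbfb among them is not a ligase. The list was chosen with earlier results of these data known, and its names were matched by symbol in a table of 45706 genes. All 9 were present once, and all 9 passed the filter on low values that left 12350 genes to test. The samples were mouse left ventricular tissue after transverse aortic constriction (TAC), an operation that narrows the aorta and loads the left ventricle with pressure. One group of 5 had TAC and placebo, whose treatment label reads vehicle, and the other group of 5 had TAC and osimertinib, a tyrosine kinase inhibitor of the epidermal growth factor receptor given for lung cancer. Both groups therefore carry the pressure load, and no unoperated hearts were analysed here. The sources used here do not give strain, sex, age, dose, time after surgery or length of treatment. They also do not state that each sample was a different animal, and the p-values cover the spread among these libraries, which may be technical. The study's title asks about the cardiac toxicity of osimertinib and names histone deacetylases.

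Ubiquitin ligases are the enzymes that choose which proteins are tagged with ubiquitin and handed to the proteasome. In skeletal and cardiac muscle a small group of them is muscle restricted and sits on or near the sarcomere, the contractile unit. Fbxo32 (atrogin-1) and Trim63 (MuRF1) are the classical markers of muscle wasting, and forkhead (FoxO) factors and the glucocorticoid receptor are known to switch them on, while insulin and Akt signalling holds FoxO factors out of the nucleus. In the heart both have also been linked to the limits on hypertrophic growth.

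Values were deposited as CPM, the reads of a gene as a share of its library scaled to a sum of 1000000, and are given as deposited and after rescaling by the median ratio to an average library over tested genes. The second scale is given because values scaled to library totals move with the share of a few abundant genes. Mitochondrially encoded transcripts took 38.1% to 63.4% of the placebo libraries and 31.7% to 45.2% of the osimertinib libraries. Whether that share sets the rescaling factors was not tested. Placebo library 5 stood apart, with the 63.4% share and a rescaling factor of 0.455 against 0.926 to 1.34 in the other 9. The median gene lay 0.27 higher (log2) under osimertinib as deposited and 0.01 higher after rescaling. Depth lay between 15863265 and 21309296 reads per library.

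The tissue label was checked against markers. The 8 ventricular cardiomyocyte markers summed to 12931 to 25955 rescaled CPM in the placebo libraries and 20652 to 33007 in the osimertinib libraries. After rescaling 2 of the 8 (Actn2 and Pln) were called higher, and 0 to 4 when 1 library was left out. Over all tested genes 10.4% were called higher and 10.5% lower on that scale. As deposited 3 of the 8 were called higher, beside 6.62% of all tested genes. After rescaling, 0 of 5 fibroblast, 0 of 5 endothelial, 0 of 5 mural and 1 of 5 macrophage markers (Adgre1) were called. Of the skeletal muscle markers, Myh4 was at 0 in all 10 libraries, and only Ckm, which cardiac muscle also expresses, was abundant enough to test. The atrial transcripts Sln, Myl7 and Myl4 summed to 119 to 2561 rescaled CPM in 6 libraries (placebo 1, 2 and 5 and osimertinib 1, 2 and 4). In the other 4 (placebo 3 and 4 and osimertinib 3 and 5) they summed to 1.44 to 2.43. The split into high and low atrial transcripts rests on these 3 genes. The atrial list also held Nppa, Dkk3 and Bmp10, and Bmp10 was at 0 in every library. Summed over all 6 genes, placebo library 3 (1085) was above placebo library 2 (792), and osimertinib library 3 (1502) above placebo library 1 (1379). The mean centred log2 of the 6 genes kept the split (0.20 to 3.31 against -2.93 to -2.43). In bulk tissue, fewer cells of a type and less RNA per cell cannot be told apart.

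Transcripts of Fbxo32, Trim63, Trim55, Trim54, Fbxo40 and Asb2 had higher means in the osimertinib libraries. On the deposited scale 6 of the 9 genes were called higher and 0 lower (Fbxo32, Trim63, Trim55, Trim54, Fbxo40 and Asb2), where 6.62% of all tested genes were called higher and 0.13% lower. After rescaling the count was 5 of 9 higher (Trim54 no longer called) and 0 lower, beside 10.4% higher and 10.5% lower over all tested genes. The median log2 fold change of the 9 was 1.16 as deposited and 0.88 rescaled, beside 0.27 and 0.01 for all tested genes. Calls are from limma at an adjusted p of 0.05 over all genes tested. Because the 9 genes were chosen with earlier results of these data known, setting their counts beside these shares is not an independent test. The deposited count was 1 when osimertinib library 3, osimertinib library 5 or placebo library 1 was left out, 2 without placebo library 5 or without mitochondrially encoded genes, and 0 without the filter on low values. The rescaled count was 1 without placebo library 1, placebo library 2, osimertinib library 3, osimertinib library 5 or the filter and 2 without placebo library 5 or osimertinib library 2, and relative to cardiomyocyte markers 0 were higher.

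**Figure D1:**
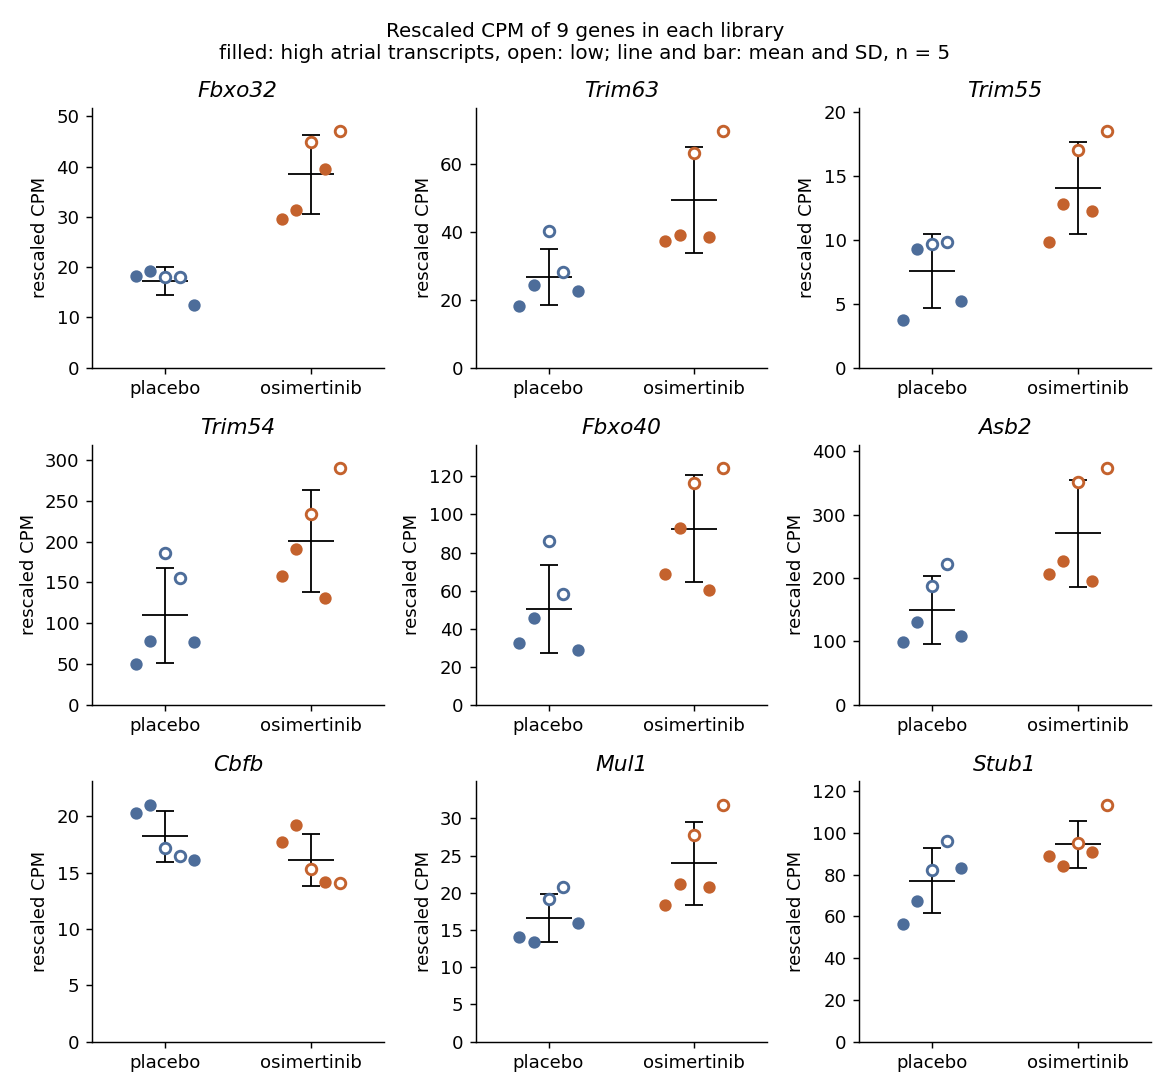
Rescaled CPM (linear axis from 0) of the 9 genes, 1 panel a gene and 1 point a library, with the mean and SD of each group of 5; filled points are libraries with high atrial transcripts and open points those with low ones. The osimertinib libraries of Fbxo32 lie between 29.6 and 47.1, all above the placebo libraries, while those of Cbfb overlap with placebo.

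Fbxo32 is the F-box protein that brings substrates to the Skp1, Cul1 and RING ligase complex in muscle. Its gene spans chr15:58175879-58214932 on the reverse strand of GRCm38, with 9 exons, and shares exon bases with the opposite-strand gene Gm15943. Of its 31-base words 1.76% also occur in other genes, the highest share of the 9. In rescaled CPM the placebo libraries 1 to 5 held 18.3, 19.2, 18.1, 18.0 and 12.4, and the osimertinib libraries 1 to 5 held 29.6, 31.5, 45.0, 39.6 and 47.1. Every osimertinib library was above every placebo library, which held for 5.72% of all tested genes, and the reverse order for 6.82%. As deposited the ranges were 5.63 to 25.8 for placebo and 29.0 to 51.9 for osimertinib, again without overlap, where 5.33% of tested genes were so placed and 0.081% the other way round. The group means of 17.2 ± 2.74 and 38.5 ± 7.84 rescaled CPM (SD, n = 5 each) gave a log2 fold change of 1.13 ± 0.16 (SE, limma adjusted p = 0.00867), and the deposited values gave 1.41 ± 0.33 (limma adjusted p = 0.00518). On the rescaled values this was at percentile 99.0 of the fold changes of tested genes. Fbxo32 stayed past the threshold in all 10 fits that left out 1 library, on both scales, with adjusted p up to 0.0207 deposited and 0.0307 rescaled. Without the filter on low values, which adds many genes near 0 to the test, its adjusted p was 0.159 deposited and 0.0173 rescaled.

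Trim63, Trim55 and Trim54 encode the MuRF proteins 1, 2 and 3, related RING finger ligases that bind one another, titin and microtubules. Trim63 lies at chr4:134315120-134329629 on the forward strand. Its rescaled CPM were 18.0, 24.4, 40.1, 28.1 and 22.7 in placebo libraries 1 to 5 and 37.2, 39.1, 63.2, 38.5 and 69.6 in osimertinib libraries 1 to 5. Only placebo library 3 reached into the osimertinib range, and osimertinib libraries 3 and 5 were the highest. The means rose from 26.7 ± 8.34 to 49.5 ± 15.6 (SD, n = 5 each), a log2 fold change of 0.88 ± 0.23 (SE, limma adjusted p = 0.0256), with 1.16 ± 0.33 (adjusted p = 0.0210) on the deposited scale. Leaving out placebo library 1, placebo library 2, osimertinib library 3 or osimertinib library 5 ended the rescaled call, with adjusted p up to 0.0747.

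The stretch upstream of Trim63 is shown because 2 of the regulators known for this gene family have sequence matches there next to each other. RefSeq promoter entries (GRCm38.p6) matched 7 of the 9 genes, with 9 start sites in all, and the 250 bases before each start were searched on both strands. Fbxo32 and Trim55 had no entry, so their upstream stretches were not searched. The motifs were a forkhead core, GTAAACA, a palindrome of the glucocorticoid receptor (GAACA and its reverse complement TGTTC with 3 bases between), the E-box CANNTG, and the MEF2 and CArG motifs of muscle genes. The following line gives 80 bases of the forward strand, chr4:134314882-134314961, with the palindrome and the forkhead core (as its reverse complement) in capitals.
Trim63: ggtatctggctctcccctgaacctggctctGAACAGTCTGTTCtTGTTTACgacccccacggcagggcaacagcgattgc
The palindrome spans bases 208 to 196 before the start and the forkhead core bases 194 to 188, so that they do not overlap. Over 32851 promoter windows of the same length, 0.0396% (13) held the palindrome and 3.17% (1040) the forkhead core. No other matched gene among the 9 held either in these windows, and a match in letters is not a measured binding site. An E-box was found for 6 of the 7 genes with an entry and in 66.2% of all windows.

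Trim55 (MuRF2), at chr3:19644474-19692421 on the forward strand, was the lowest of the 9 in CPM. Placebo libraries 1 to 5 held 3.74, 9.33, 9.73, 9.83 and 5.27 rescaled CPM, and osimertinib libraries 1 to 5 held 9.83, 12.8, 17.1, 12.3 and 18.5. The groups touched at 9.83, where the lowest osimertinib library stood only just above the highest placebo library. The log2 fold change was 0.91 ± 0.26 (SE, limma adjusted p = 0.0335) rescaled and 1.16 ± 0.32 (adjusted p = 0.0189) deposited. The fewest estimated reads for any of the 9 genes in a library were 51, for this gene. Trim54 (MuRF3), at chr5:31116712-31137630, held 50.3, 78.7, 186, 155 and 77.4 rescaled CPM in placebo libraries 1 to 5 and 158, 191, 234, 131 and 290 in osimertinib libraries 1 to 5. Placebo libraries 3 and 4 lay within the osimertinib range, and the spread within placebo (SD of 0.78 on the log2 scale) was the widest of the 9. Its log2 fold change of 0.98 ± 0.33 rescaled did not pass (limma adjusted p = 0.0537, 95% interval 0.26 to 1.70), while 1.27 ± 0.35 deposited did (adjusted p = 0.0178). Leaving out osimertinib library 3 or 5 or placebo library 1 or 5 ended the deposited call, with adjusted p reaching 0.0724, as did leaving out mitochondrially encoded genes (adjusted p = 0.0671). Trim54 shares exon bases with the opposite-strand gene Gm15469.

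Ratios of genes within a library, taken on deposited CPM + 0.5, carry the scale between libraries only through the added 0.5. The log2 ratio of Fbxo32 to Trim63 averaged -0.58 ± 0.44 in placebo and -0.33 ± 0.23 in osimertinib libraries (SD, n = 5 each), a difference of 0.25 in an exact permutation test (two-sided p = 0.27, Benjamini-Hochberg 0.81 over 3 ratios). For Trim55 to Trim63 the difference was 0.0085 (exact permutation p = 0.937, adjusted 0.937) and for Trim54 to Trim63 it was 0.11 (exact permutation p = 0.595, adjusted 0.893). No difference in these ratios was detected with 5 libraries a group, where the smallest p the test can give is 0.00794. The ratio of Fbxo32 to Trim63 ranged from -1.13 to 0.02 among placebo libraries and from -0.56 to 0.04 among osimertinib libraries. With a pseudocount of 2 the difference for Trim55 to Trim63 was -0.12.

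Fbxo40 and Asb2 are substrate adaptors of cullin ligases. Fbxo40 is a muscle restricted F-box protein known to act on the insulin signalling adaptor Irs1, and Asb2 joins the Cul5 scaffold and is known for the turnover of filamins. Fbxo40, at chr16:36963460-36990467 on the reverse strand, held 32.4, 45.7, 86.3, 58.1 and 28.9 rescaled CPM in placebo libraries 1 to 5 and 68.5, 93.1, 116, 60.3 and 124 in osimertinib libraries 1 to 5. Its log2 fold change was 0.93 ± 0.29 (SE, limma adjusted p = 0.0422) rescaled and 1.21 ± 0.35 (adjusted p = 0.0228) deposited. Placebo library 3 was above osimertinib libraries 1 and 4, so the groups overlapped. Asb2, at chr12:103321142-103356001 on the reverse strand, held 98.5, 130, 187, 223 and 109 rescaled CPM in placebo libraries 1 to 5 and 205, 227, 351, 195 and 373 in osimertinib libraries 1 to 5. The log2 fold change of Asb2 was 0.87 ± 0.26 (SE, limma adjusted p = 0.0359) rescaled and 1.16 ± 0.34 (adjusted p = 0.0277) deposited. Placebo library 4 exceeded osimertinib libraries 1 and 4 for Asb2. The rescaled calls of Trim55, Fbxo40 and Asb2 were each lost in 6 of the 10 fits that left out 1 library (placebo 1, 2 or 5 or osimertinib 2, 3 or 5), with adjusted p up to 0.0893, 0.108 and 0.096 in that order.

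The upstream stretches of this pair are shown because each held a match to a muscle motif that none of the other matched genes among the 9 had. Both lines read along the gene's own strand, the reverse strand of GRCm38.p6, at chr16:36990524-36990603 for Fbxo40 with the MEF2 motif in capitals and at chr12:103356021-103356100 for Asb2 with the CArG box in capitals.
Fbxo40: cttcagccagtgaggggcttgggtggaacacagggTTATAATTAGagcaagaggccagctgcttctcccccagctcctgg
Asb2: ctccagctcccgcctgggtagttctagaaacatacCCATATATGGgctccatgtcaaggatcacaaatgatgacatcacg
The MEF2 match lies 101 to 92 bases before the Fbxo40 start and the CArG match 64 to 55 bases before the Asb2 start. MEF2 matches were in 2.92% of the 32851 windows and CArG matches in 1.47%. Srf, the factor known to bind CArG boxes, was higher in the osimertinib libraries (rescaled log2 fold change 0.72 ± 0.14, limma adjusted p = 0.0137). As deposited its limma adjusted p was 0.0425, a call kept in 4 of 10 fits without 1 library. Whether Srf acts on Asb2 here was not tested.

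Mul1, Stub1 and Cbfb were called on neither scale. Mul1, a RING ligase of the outer mitochondrial membrane, held 14.0, 13.4, 19.1, 20.7 and 15.9 rescaled CPM in placebo libraries 1 to 5 and 18.4, 21.1, 27.8, 20.7 and 31.8 in osimertinib libraries 1 to 5. All 5 osimertinib libraries were above the placebo mean, but the log2 fold change of 0.51 ± 0.17 did not pass (limma adjusted p = 0.0516, 95% interval 0.14 to 0.87), nor did 0.78 ± 0.31 deposited (adjusted p = 0.119). Stub1 (CHIP), a U-box ligase that works with heat shock protein chaperones, held 56.1, 67.4, 82.1, 96.2 and 83.2 rescaled CPM in placebo libraries 1 to 5 and 89.0, 84.3, 95.0, 90.7 and 113 in osimertinib libraries 1 to 5. Its log2 fold change was 0.31 ± 0.15 rescaled (limma adjusted p = 0.143, 95% interval -0.01 to 0.63) and 0.59 ± 0.32 deposited (adjusted p = 0.276). Stub1 shares exon bases with Jmjd8 on the opposite strand, and per the design text the libraries kept strand.

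Cbfb is not a ligase but the binding partner that stabilises RUNX transcription factors on DNA. Its rescaled CPM were 20.3, 21.0, 17.2, 16.5 and 16.1 in placebo libraries 1 to 5 and 17.8, 19.3, 15.3, 14.2 and 14.0 in osimertinib libraries 1 to 5. The groups overlapped, with means of 18.2 ± 2.26 and 16.1 ± 2.30 (SD, n = 5 each) and a log2 fold change of -0.18 ± 0.12 (SE, limma adjusted p = 0.315, 95% interval -0.44 to 0.09). On the deposited scale its difference had the other sign, 0.10 ± 0.32 (adjusted p = 0.896). Among the rescaled fold changes of all tested genes Cbfb stood at percentile 30.9, Stub1 at 76.1, Mul1 at 86.9 and the other 6 between 96.5 and 99.0.

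**Figure D2:**
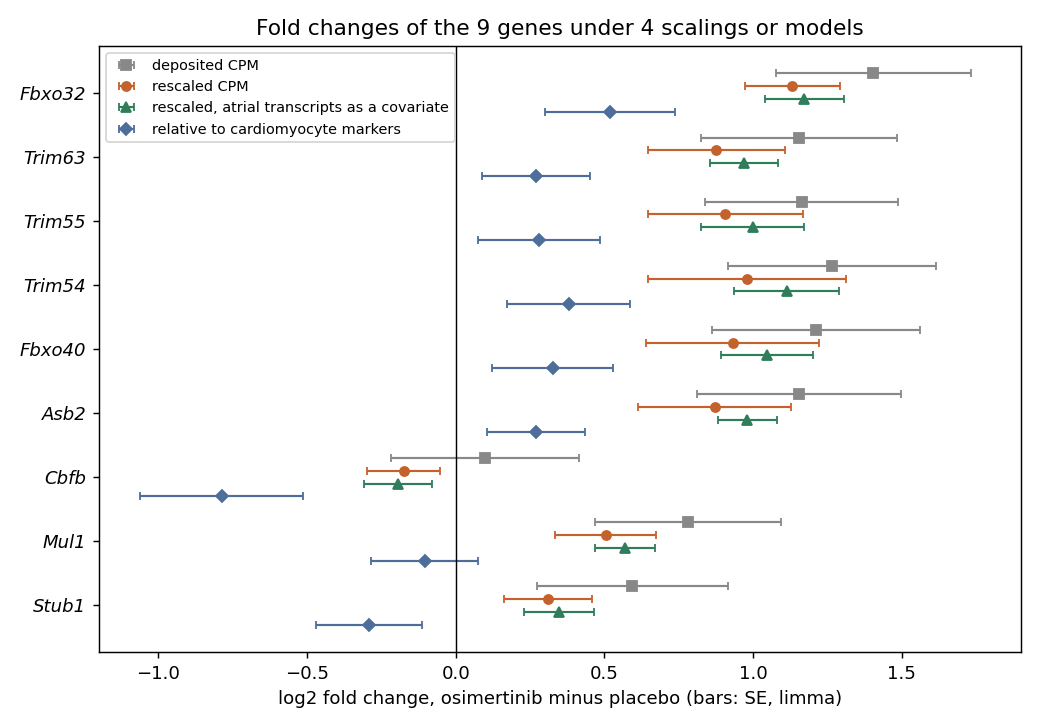
Log2 fold changes (osimertinib minus placebo, bars show SE from limma) of the 9 genes on deposited CPM, rescaled CPM, rescaled CPM with atrial transcripts as a covariate, and relative to cardiomyocyte markers. Fbxo32, Trim63, Trim55, Trim54, Fbxo40 and Asb2 lie between 0.87 and 1.13 rescaled and between 0.27 and 0.52 relative to the markers. Cbfb lies at -0.79 on that last scale.

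The level of cardiomyocyte markers moved with most of the 9 genes. The mean centred log2 of the 8 markers was -0.81, -0.44, 0.06, 0.18 and -0.49 in placebo libraries 1 to 5 and 0.00, 0.22, 0.50, 0.08 and 0.69 in osimertinib libraries 1 to 5. Placebo libraries 1, 2 and 5 were the lowest of the 10 for the markers and also for Trim63, Trim55, Trim54, Fbxo40, Asb2 and Mul1. Osimertinib libraries 3 and 5 were the highest for the markers, for these 6 genes and for Fbxo32. Cbfb did not follow the markers, being highest in placebo libraries 1 and 2 (20.3 and 21.0 rescaled CPM) and lowest in osimertinib library 5 (14.0). Within placebo, Fbxo32 was also highest in libraries 1 and 2 (18.3 and 19.2). Expressed relative to these markers, 0 of the 9 genes were called higher, beside 0.834% of all tested genes, and 1 (Cbfb, -0.79 ± 0.27, limma adjusted p = 0.0358) was called lower, beside 39%. The 6 genes called on the deposited scale kept positive values, the largest being Fbxo32 at 0.52 ± 0.22 (limma adjusted p = 0.066). Next came Trim54 at 0.38, Fbxo40 at 0.33, Trim55 at 0.28, and Trim63 and Asb2 at 0.27. The groups of Fbxo32, apart on the other 2 scales, overlapped relative to the markers. Placebo library 1 (log2 value 5.05) was then above osimertinib libraries 1, 2, 3 and 5 (4.78 to 5.01). Mul1 was at -0.10 and Stub1 at -0.29 on this scale, which takes the same amount from every gene, so that the median of all tested genes lay at -0.62 and the order of the genes is that of the deposited scale. Whether the share of cardiomyocyte RNA accounts for the rise was not tested.

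**Figure D3:**
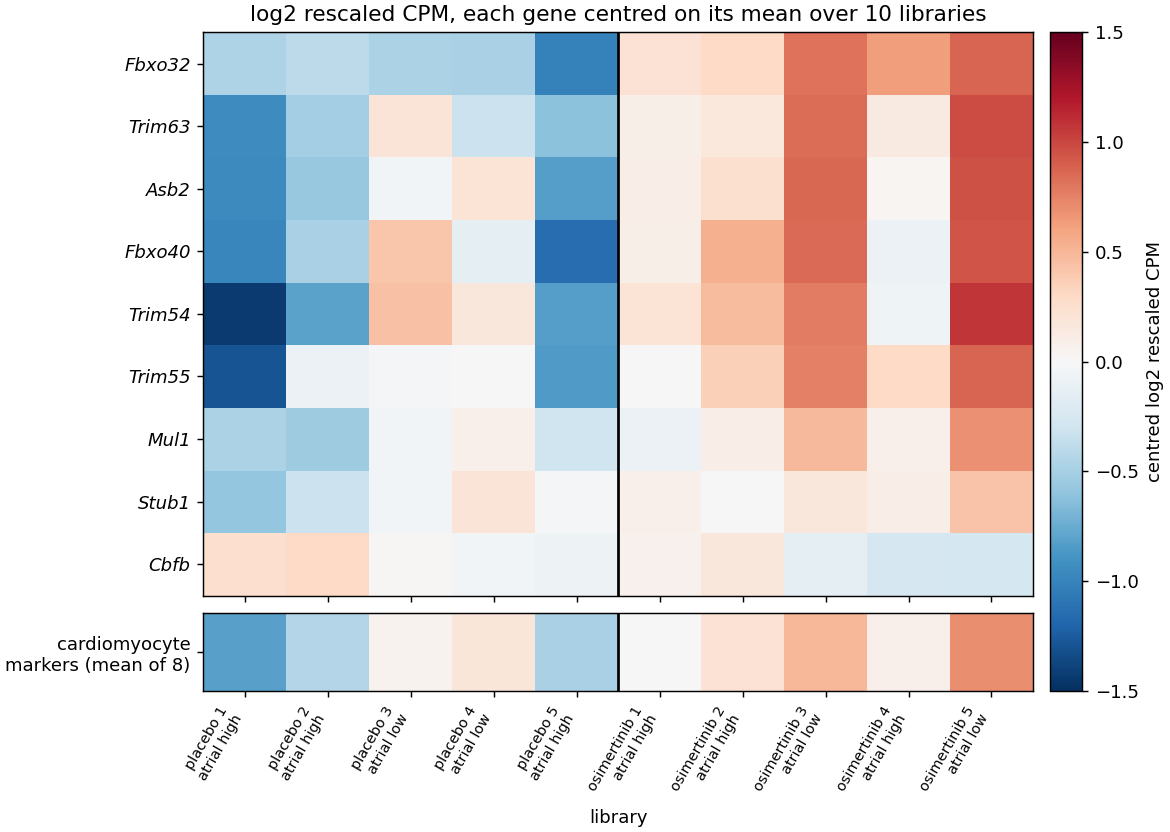
Rescaled log2 CPM of each gene, centred on its mean over the 10 libraries (colour), with libraries in columns and the mean of the 8 cardiomyocyte markers in the bottom strip. Placebo libraries 1 and 5 are lowest and osimertinib libraries 3 and 5 highest for most of the 9 genes, and the marker strip has its extremes at placebo library 1 (-0.81) and osimertinib library 5 (0.69).

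Atrial transcripts were high in 3 of 5 libraries of each group. Within the 6 libraries with high atrial transcripts, 8 of the 9 genes had every osimertinib library above every placebo library (3 against 3), beside 18.6% of all tested genes, and the exception was Cbfb. Within the 4 libraries with low atrial transcripts, 7 of 9 did (2 against 2), all but Cbfb and Stub1, beside 36.2% of tested genes. For Trim63 the ranges were 18.0 to 24.4 against 37.2 to 39.1 rescaled CPM in the first set and 28.1 to 40.1 against 63.2 to 69.6 in the second. For Trim54 they were 50.3 to 78.7 against 131 to 191 and then 155 to 186 against 234 to 290, so the placebo libraries that overlapped with treated ones overall were those with low atrial transcripts. With the mean log2 of Sln, Myl7 and Myl4 as a covariate, chosen after these values were seen, 8 of the 9 genes were called higher (all but Cbfb), beside 21% of tested genes. Fbxo32 was then at 1.17 ± 0.13 (limma adjusted p = 7.26e-05), Trim54 at 1.11 ± 0.18 (adjusted p = 0.000449) and Mul1 at 0.57 ± 0.10 (adjusted p = 0.00097). In that fit Asb2, Trim63, Trim54, Fbxo40, Mul1 and Trim55 each fell with rising atrial transcripts, with slopes for Asb2 of -0.11 and for Trim63 of -0.094 per log2 unit (adjusted p = 0.000488 and 0.0014). Of all tested genes 12.6% had a called slope below 0. The level of cardiomyocyte markers also separated the groups within both sets. Its mean centred log2 was -0.81 to -0.44 in placebo and 0.00 to 0.22 in osimertinib libraries with high atrial transcripts. With low atrial transcripts it was 0.06 to 0.18 in placebo and 0.50 to 0.69 in osimertinib libraries. Neither the sets nor the covariate fit adjusted for that level, and its part in the rise was not tested.

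Levels between genes were compared per kilobase of the longest coding transcript. In placebo hearts the order in rescaled CPM per kilobase was Trim54 at 76.3 ± 40.4, Asb2 at 55.5 ± 19.8 and Stub1 at 42.7 ± 8.61 (SD, n = 5 each), which overlapped. Trim63 followed at 14.1 ± 4.42 and Fbxo40 at 9.78 ± 4.52, overlapping with each other but not, for Trim63, with Stub1. Cbfb at 6.31 ± 0.78 and Mul1 at 4.21 ± 0.81 were apart from each other, and Trim55 at 2.92 ± 1.10 and Fbxo32 at 2.47 ± 0.39 were the lowest and overlapped. Fbxo40 (from 5.63) also overlapped with Cbfb (up to 7.27), and Trim55 (up to 3.79) with Mul1 (from 3.39). In osimertinib hearts Fbxo32 reached 5.52 ± 1.12 per kilobase and Trim63 26.3 ± 8.28. The gene with the largest fold change was thus, by its mean per kilobase, the least abundant of the 9 in placebo hearts.

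The 9 genes also differed in how closely they moved together. Over the 10 libraries, with each gene centred on its mean, Trim63 and Asb2 differed by 0.13 log2 on average, Trim63 and Fbxo40 by 0.16, and Mul1 and Stub1 by 0.16. Fbxo32 and Trim63 differed by 0.27, and the farthest pair was Trim54 and Cbfb at 0.70. Among all tested genes the 5 nearest to Fbxo32 were Pde3a (0.16), a phosphodiesterase of cyclic nucleotides, Jmjd7 (0.17), Odc1 (0.18), the first enzyme of polyamine synthesis, Dnajc25 (0.18) and Oat (0.18), where the median tested gene differed by 0.57. The 5 nearest to Trim63 were Slc25a33 (0.079), Uqcc1 (0.086), Aifm1 (0.092), Bphl (0.094) and Prdx2 (0.097), against a median of 0.52. Slc25a33, Uqcc1 and Aifm1 encode mitochondrial proteins. These distances describe these 10 libraries and rest in part on the group difference that they share.

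Other ligases and adaptors of striated muscle followed in part. Of 30 tested, 6 were called higher and 0 lower after rescaling (7 and 0 as deposited), with a median log2 fold change of 0.19. The shares over all tested genes, against which this and the following lists stand, were 10.4% higher and 10.5% lower rescaled and 6.62% and 0.13% deposited. Relative to cardiomyocyte markers, where 0.834% of all tested genes were higher and 39% lower, 2 of these 30 genes were higher and 10 lower. Klhl40, a kelch adaptor that stabilises thin filament proteins, went from 2.03 ± 1.01 to 6.74 ± 2.39 rescaled CPM (SD, n = 5 each), a log2 fold change of 1.55 ± 0.28 (limma adjusted p = 0.0122). Its relative Klhl41 rose from 7.30 ± 2.63 to 16.5 ± 5.22, by 1.14 ± 0.24 (adjusted p = 0.0157), and both calls held in all 10 fits without 1 library. Wwp1, a HECT ligase, rose by 0.65 ± 0.17 (adjusted p = 0.0252) and Asb18, a relative of Asb2, by 0.95 ± 0.27 (adjusted p = 0.0316). The number called higher in this list lay between 2 and 8 when 1 library was left out.

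In the general machinery that these adaptors plug into, calls differed between the scales. Of 11 cullin-RING scaffold genes, 5 were called higher after rescaling and 0 as deposited, with a median of 0.42, and leaving out 1 library gave 0 to 5. Cul3, the scaffold for kelch adaptors, rose by 0.46 ± 0.12 (limma adjusted p = 0.0232), Rnf7, a RING partner of Cul5, by 0.51 ± 0.14 (adjusted p = 0.031), Cand2 by 0.50 ± 0.14 (adjusted p = 0.0337) and Cul5 by 0.42 ± 0.13 (adjusted p = 0.0423). Among 19 genes for ubiquitin and its activating and conjugating enzymes, 3 were higher rescaled and 0 deposited, with a median of 0.25 and 0 to 4 without 1 library, a count near the 10.4% of all tested genes. They included Uba1, the main activating enzyme, at 0.34 ± 0.10 (adjusted p = 0.0352) and the conjugating enzyme gene Ube2d1 at 0.35 ± 0.11 (adjusted p = 0.0436), while Ube2l3 at 0.34 ± 0.14 did not pass (adjusted p = 0.0836). Of 10 deubiquitinases, which remove ubiquitin, 3 were higher rescaled and 2 deposited. Uchl3 rose by 0.81 ± 0.24 (adjusted p = 0.0359), Usp13 by 0.87 ± 0.26 (adjusted p = 0.0382) and Usp14, a proteasome partner, by 0.48 ± 0.15 (adjusted p = 0.041), and Usp19 was at -0.31 ± 0.13 (adjusted p = 0.108). The median of the deubiquitinases was 0.06, and 0 to 3 were higher without 1 library.

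Known regulators of the atrophy genes were mostly without a call. Of 22 listed, 19 were tested, and 1 was called higher and 0 lower after rescaling (0 of either deposited), with a median of 0.01. Foxo3, a forkhead activator of Fbxo32 and Trim63, rose from 12.6 ± 1.74 to 18.0 ± 3.20 rescaled CPM (SD, n = 5 each), by 0.49 ± 0.14 (limma adjusted p = 0.0306), and kept its call in 5 of 10 fits without 1 library. Foxo4 at 0.33 ± 0.12 (adjusted p = 0.0667), Nfkb1 at -0.29 ± 0.12 (adjusted p = 0.0832) and Rela at -0.24 ± 0.10 (adjusted p = 0.105) did not pass. Of 18 genes for upstream signals, 13 were tested and 1 was called higher rescaled (2 deposited), with a median of 0.21. This was Irs1, the insulin signalling adaptor that Fbxo40 is known to target, which rose from 6.98 ± 1.82 to 13.7 ± 4.82 rescaled CPM, by 0.89 ± 0.24 (adjusted p = 0.0273). Akt2 at 0.42 ± 0.14 (adjusted p = 0.0501), the insulin receptor gene Insr at 0.36 ± 0.13 (adjusted p = 0.0703) and Tnfrsf12a at 1.04 ± 0.41 (adjusted p = 0.084) were not called after rescaling. Tnfrsf12a was the other gene called on the deposited scale (adjusted p = 0.0146), a call lost without placebo library 2, placebo library 5 or osimertinib library 3. Transcript levels say nothing of where FoxO proteins sit or of Akt phosphorylation.

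Other transcripts known from atrophying muscle showed 3 of 14 higher and 0 lower after rescaling (2 higher deposited), with a median of 0.37 and 1 to 6 higher without 1 library. Eif4ebp1, a brake on translation, rose from 17.9 ± 5.87 to 35.6 ± 8.60 rescaled CPM (SD, n = 5 each), by 1.00 ± 0.21 (limma adjusted p = 0.0158), and kept its call in all 10 fits without 1 library. The autophagy receptor gene Sqstm1 rose by 0.60 ± 0.17 (adjusted p = 0.0305) and Gabarapl1, an autophagosome protein gene, by 0.41 ± 0.11 (adjusted p = 0.031), while Map1lc3b at 0.39 ± 0.14 did not pass (adjusted p = 0.0624). As deposited, Sqstm1 and Gabarapl1 were not called (limma adjusted p = 0.09 and 0.187). The deposited calls were Eif4ebp1 (limma adjusted p = 0.00886) and Pdk4 (0.0123), which was named after its values were seen and lost its call without placebo library 5.

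Reported partners and substrates of the 9 genes were mixed. Of 15 tested of 16, 3 were called higher and 2 lower after rescaling (4 higher and 0 lower deposited), with a median of 0.25. Beside Srf, these were Mfn2, the mitochondrial fusion protein on which Mul1 acts, with a rise of 0.78 ± 0.18 (limma adjusted p = 0.0185), and desmin (Des), an intermediate filament gene, with 1.04 ± 0.30 (adjusted p = 0.034). The filamin gene Flna, named after its values were seen, fell by 0.46 ± 0.14 (adjusted p = 0.0429), and it was not called on the deposited scale. Of the 11 chaperone partners of Stub1, 1 was called higher (Bag1, 0.64 ± 0.19, adjusted p = 0.0348) and 1 lower (Bag5, -0.29 ± 0.09, adjusted p = 0.046) after rescaling and 0 as deposited, with a median of 0.02. Dnajb1 at -0.55 ± 0.19 (adjusted p = 0.0584) and Hspbp1 at 0.43 ± 0.17 (adjusted p = 0.0873) did not pass.

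Relative to cardiomyocyte markers, 0 genes were higher in each of the lists after the other muscle ligases. The number lower was 1 of 11 cullin-RING scaffolds, 1 of 19 ubiquitin, activating and conjugating enzyme genes, 2 of 10 deubiquitinases, 9 of 19 regulators, 1 of 13 upstream signals, 1 of 14 other atrophy transcripts, 4 of 15 partners and substrates and 7 of 11 chaperone partners, beside 39% of all tested genes.

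Of the called genes named from these lists, Klhl40, Klhl41, Eif4ebp1 and Srf kept their rescaled calls in all 10 fits that left out 1 library. Mfn2 lost its call only without osimertinib library 3 (adjusted p = 0.0565). Each of the others lost it without placebo library 1 and without osimertinib library 3 or 5, and also without placebo library 2, with adjusted p up to 0.111 (Cul5). As deposited, Klhl40, Klhl41 and Eif4ebp1 also kept their calls in all 10 such fits. Srf kept its deposited call in 4 of them (limma adjusted p up to 0.169) and Mfn2 in 5 (up to 0.139).

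**Figure D4:**
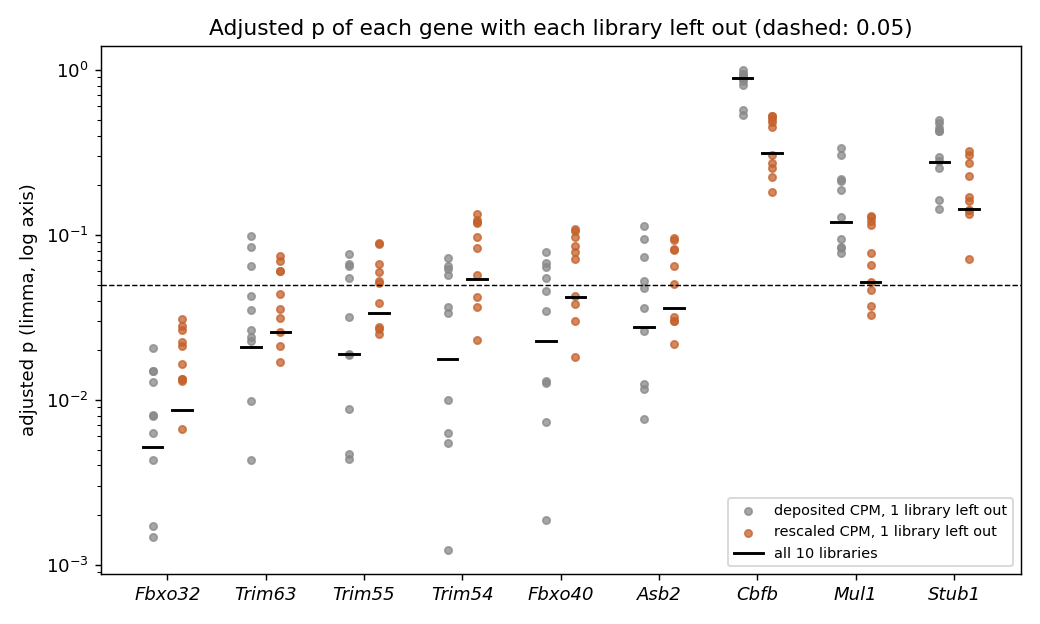
Adjusted p (limma, log axis) of each of the 9 genes in the fits that leave out 1 library, for deposited and rescaled CPM; the bars mark the fit with all 10 libraries and the dashed line 0.05. All 20 points of Fbxo32 lie below the line, no point of Cbfb or Stub1 does, and those of the other genes fall on both sides in at least 1 scale.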

How the data were processed

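Poly(A) RNA of left ventricular tissue was sequenced, per the labels' protocols, from 5 placebo and 5 osimertinib samples, grouped by title. The authors deposited CPM, scaled to each library's total. The design text gives STAR on GRCm38 for alignment, RSEM for quantification and limma with voom as the authors' test. The submitters' processing notes instead name cutadapt 1.9, HISAT2 2.0.4, StringTie 1.3.4d, DESeq2 and the human build hg38. Mouse gene identifiers matched GENCODE M21 (GRCm38) in 98.8% of cases (45143 of 45706), and that annotation gave coordinates.

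The worth of 1 read in CPM, and so depth, was read from the spacing of low values. Values under 200 reads were whole, to 0.01 read, in 90.7% to 93.4% of cases, as estimated counts would be. The main test therefore used log2 CPM, and voom on estimated reads was run only as an alternative.

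Genes reaching 1 CPM in 5 or more libraries were tested on log2(CPM + 0.5) with limma 3.58.1 in R 4.3.3 (intensity trend, two-sided, Benjamini-Hochberg over all 12350 genes, calls at 0.05). Fold changes on that scale understate changes of low genes. The prior variance had 72.9 degrees of freedom deposited and 4.45 rescaled, so deposited SEs lean on the spread shared by all genes. Ratios were tested by exact permutation (252 assignments, scipy 1.17.1). The fit was tested on simulated data.

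The 9 genes and all lists were chosen with earlier results of these data known. Named genes are the 9, up to 4 genes of each list with the lowest rescaled p, and the 5 genes nearest to Fbxo32 and to Trim63, without clone names and pseudogenes; 2 of them are not reported here. Alternatives were a pseudocount of 0.1 or of 2, testing without the filter or with a mean of 5 CPM required, no trend, array weights, a replicate block, quantile normalization, no mitochondrially encoded genes, scaling to cardiomyocyte markers, voom on estimated reads and leaving out each library. The atrial covariate was added after the data were seen.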

Additional observations from a re-analysis of the deposited data

Results flagged for a closer look

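Fbxo32 in placebo library 5 was at 12.4 rescaled CPM, apart from the other 4 placebo libraries at 18.0 to 19.2. Its gap to the nearest library was 0.824 of the group's range, above Dixon's 95% critical value of 0.71 for 5 samples. It was 1 flag among 42 groups checked, and chance flags about 1 in 20 groups. The same library had the highest mitochondrial share (63.4%). Without placebo library 5 the call of Fbxo32 was kept on both scales.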

How the results depend on the processing

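The number of the 9 genes called higher was 6 deposited and 5 rescaled. It was 0 and 1 without the filter on low values, where 0 of 21622 genes were called at all on deposited CPM, and 2 deposited without mitochondrially encoded genes. Relative to cardiomyocyte markers 1 was called (Cbfb, lower), and with the atrial covariate 8 were. Leaving out 1 library gave 1 to 6 deposited and 1 to 7 rescaled; the single gene left was Fbxo32 without placebo library 1 or osimertinib library 3 or 5 on both scales and without placebo library 2 rescaled, and Fbxo32 and Trim63 were left without placebo library 5 on both and without osimertinib library 2 rescaled. Other settings gave 4 to 7. Of 351 alternatives for single genes, 266 kept direction and call, 61 lost the call, 18 gained one and 6 reversed. Deposited Cbfb reversed under quantile normalization (-0.20) and without mitochondrially encoded genes (-0.16), and ranged from -0.18 to 0.29 with 1 library left out. Relative to cardiomyocyte markers Mul1 was at -0.10 and Stub1 at -0.29. The ratio of Trim55 to Trim63 was -0.12 at a pseudocount of 2 and -0.083 to 0.11 with 1 library left out, that of Trim54 to Trim63 -0.0018 to 0.25, and that of Fbxo32 to Trim63 0.11 to 0.40. The cause was not tested. Depth limits Trim55 most (51 reads in 1 library).

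The replicate numbers pair nothing by label, and deviations of same-numbered libraries correlated at 0.43, 0.24, 0.46, -0.34 and -0.16, with 3 of 5 placebo libraries correlating best with their own number. With the replicate block 6 genes were called deposited and 7 rescaled (Trim54 and Mul1 added), and the paired ratios gave the same differences (0.25, 0.0085 and 0.11), each with an adjusted exact p of 0.938.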
